A study of Mus musculus with 18 samples.

Results

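Genes of the contractile apparatus that is typical of smooth muscle were followed through osterix-derived mouse cells with and without the parathyroid hormone receptor PTH1R. The genes were Acta2, Actg2, Cnn1, Tagln, Myh11, Myl9, Tpm1, Tpm2, Cald1 and Des, 10 of the 54446 genes counted. They were picked by name, after several of them had been seen to be lower in knockout marrow cells, so their values in marrow are given below as a description without a test. All 10 were among the 15516 genes that passed the filter on low counts.

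Smooth muscle cells pull by sliding actin filaments past filaments of smooth muscle myosin, and the pericytes of small vessels and myofibroblasts carry parts of the same apparatus. Tropomyosins lie along the actin filament, while calponin and caldesmon bind it and restrain the myosin motor, which is switched on when its regulatory light chain is phosphorylated. Many genes of this apparatus are driven by serum response factor (SRF) with cofactors of the myocardin family, through a DNA element called the CArG box. In marrow and bone, alpha smooth muscle actin is known from pericytes and vessel walls and from part of the stromal and osteoprogenitor cells.

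Sorted cells were taken from mice at postnatal day 21, and total RNA was made into SMART-Seq libraries, a method for very small inputs. Control mice carried the genotype label Wild type, and the knockout mice were labelled Conditional PTH1R KO, with the deletion placed in osteoprogenitors by the title of the study. Each genotype gave marrow stromal cells sorted as GFP-Tm+, bone cells sorted as GFP+ and bone cells sorted as GFP-Tm+, where Tm is a marker as the labels write it. These are called marrow, GFP+ bone and GFP- bone here. Each of the 6 groups held 3 libraries. The labels name neither the Cre driver nor any agent, and all groups are described as osterix-derived. The labels do not say whether replicates are different animals. A p-value here therefore reflects only how much the libraries of a group vary, and that variation may be technical in part.

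The libraries held 16443595 to 27160257 counts in genes. Pth1r, the targeted gene, was lower in the knockout in each subset, with log2 fold changes of -0.70 ± 0.13 (SE) in marrow, -0.52 ± 0.13 in GFP+ bone and -0.56 ± 0.13 in GFP- bone and adjusted p of 0.000195, 0.00226 and 0.00144 by edgeR's quasi-likelihood test. Its counts cover all exons and not the deleted part alone. With the trend on transcript length removed, the Pth1r changes in GFP+ and GFP- bone were -0.20 (adjusted p = 0.19) and -0.24 (adjusted p = 0.127). Marrow stroma markers summed to 27716 to 68255 counts per 1000000 (CPM) in the marrow libraries and 382 to 3983 in bone. All sums over marker lists are per 1000000 counts of the library total. CPM of single genes are scaled for library composition, so sums and single genes are on different scales. Osteoblast markers summed to at least 35129 CPM in every library. Chondrocyte markers reached 102404 to 125258 CPM in control GFP+ bone and 242526 to 256386 in knockout GFP+ bone, against 1906 to 2970 in marrow. Endothelial markers stayed at or under 14.6 CPM in sum and cardiac muscle markers under 1 CPM in every library. Knockout marrow replicate 2 stood apart in megakaryocyte and platelet markers, at 324 CPM in sum against 2.73 and 4.32 in its group. In other blood cell markers, control GFP- bone replicate 2 summed to 296 CPM and knockout GFP+ bone replicate 2 to 257 CPM.

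RefSeq promoter windows (GRCm38.p6, 250 bases before to 50 after a gene's start) were found for 7 of the 10 genes, 8 windows in all. They were searched on both strands for the CArG box, 10 bases with CC at one end, GG at the other and A or T at the 6 positions between. Only the Myl9 window held a strict box, as did 1.63% of 32851 promoters. With at most 1 G or C allowed inside, the Acta2 and Myl9 windows held 2 boxes each, and 9.98% of all promoters held at least 1. These 2 windows are printed because only they held a box. Boxes are in capitals, and each sequence is on the gene's own strand. The Acta2 sequence runs 250 bases up to its RefSeq start. The Myl9 sequence, 206 bases, stops before the gene's start in the counts (156775420), which lies ahead of its RefSeq start.
Acta2 promoter, chr19:34255374-34255623, minus strand: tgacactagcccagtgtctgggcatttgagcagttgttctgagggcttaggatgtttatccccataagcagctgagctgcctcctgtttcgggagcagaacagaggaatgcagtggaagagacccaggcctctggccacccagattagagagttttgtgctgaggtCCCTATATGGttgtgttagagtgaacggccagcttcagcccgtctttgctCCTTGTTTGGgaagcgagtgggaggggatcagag
Myl9 promoter, chr2:156775214-156775419, plus strand: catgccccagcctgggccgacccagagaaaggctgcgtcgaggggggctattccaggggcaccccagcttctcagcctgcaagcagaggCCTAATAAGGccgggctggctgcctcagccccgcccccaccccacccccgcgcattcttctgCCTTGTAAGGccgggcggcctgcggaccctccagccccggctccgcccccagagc
The boxes begin 84 and 34 bases before the RefSeq start of Acta2, and 161 and 99 bases before that of Myl9. A match describes the letters only. No window was matched for Actg2, Tagln or Myh11.

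In levels per kilobase of exon, which allow genes to be set beside each other, Myl9, Acta2, Tpm1 and Tpm2 led in control marrow, at means of 525, 468, 148 and 85 CPM per kilobase. Actg2 (20) and Cald1 (17.5) followed, and Cnn1 (9.18), Myh11 (8.56), Des (3.15) and Tagln (2.79) were lowest. In GFP+ bone Tpm1 led in both genotypes, at 24.9 CPM per kilobase in controls and 21.9 in knockouts, with Cnn1, Myh11 and Tagln at or under 0.26. Across the 6 groups, mean CPM was highest in control marrow for 8 genes. The exceptions were Cald1, highest in knockout marrow, and Des, highest in knockout GFP+ bone. Acta2 ran from control marrow through control GFP- bone, knockout marrow, knockout GFP- bone and control GFP+ bone to knockout GFP+ bone. In that order, knockout GFP- bone overlapped with knockout marrow and with control GFP+ bone, and no other neighbours overlapped. Cnn1 and Tagln were low in bone, and after control marrow, which did not overlap with control GFP- bone, each group in their order overlapped with its neighbour. Tagln, an actin-binding protein also called SM22, is uncertain here: 62.4% of its exon bases also belong to the antisense gene Gm48529 and 5.43% to Pcsk7 on the other strand, and the sources used here do not state whether counting used the strand. Gm48529 itself held 0 to 16 counts per library. Whether reads in the shared bases were counted for either gene is not known, so nothing is read from the low rank of Tagln. In the build used (mm10), Acta2 lies on chromosome 19 at 34241090 to 34255336 (minus strand), Actg2 on chromosome 6 at 83512905 to 83536265 (minus strand), Cald1 on chromosome 6 at 34598500 to 34775473 (plus strand) and Des on chromosome 1 at 75360329 to 75368579 (plus strand), and each count is a sum over the gene's exons. Of the Des exon bases, 5.86% are shared with the antisense gene Gm15179.

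**Figure D1:**
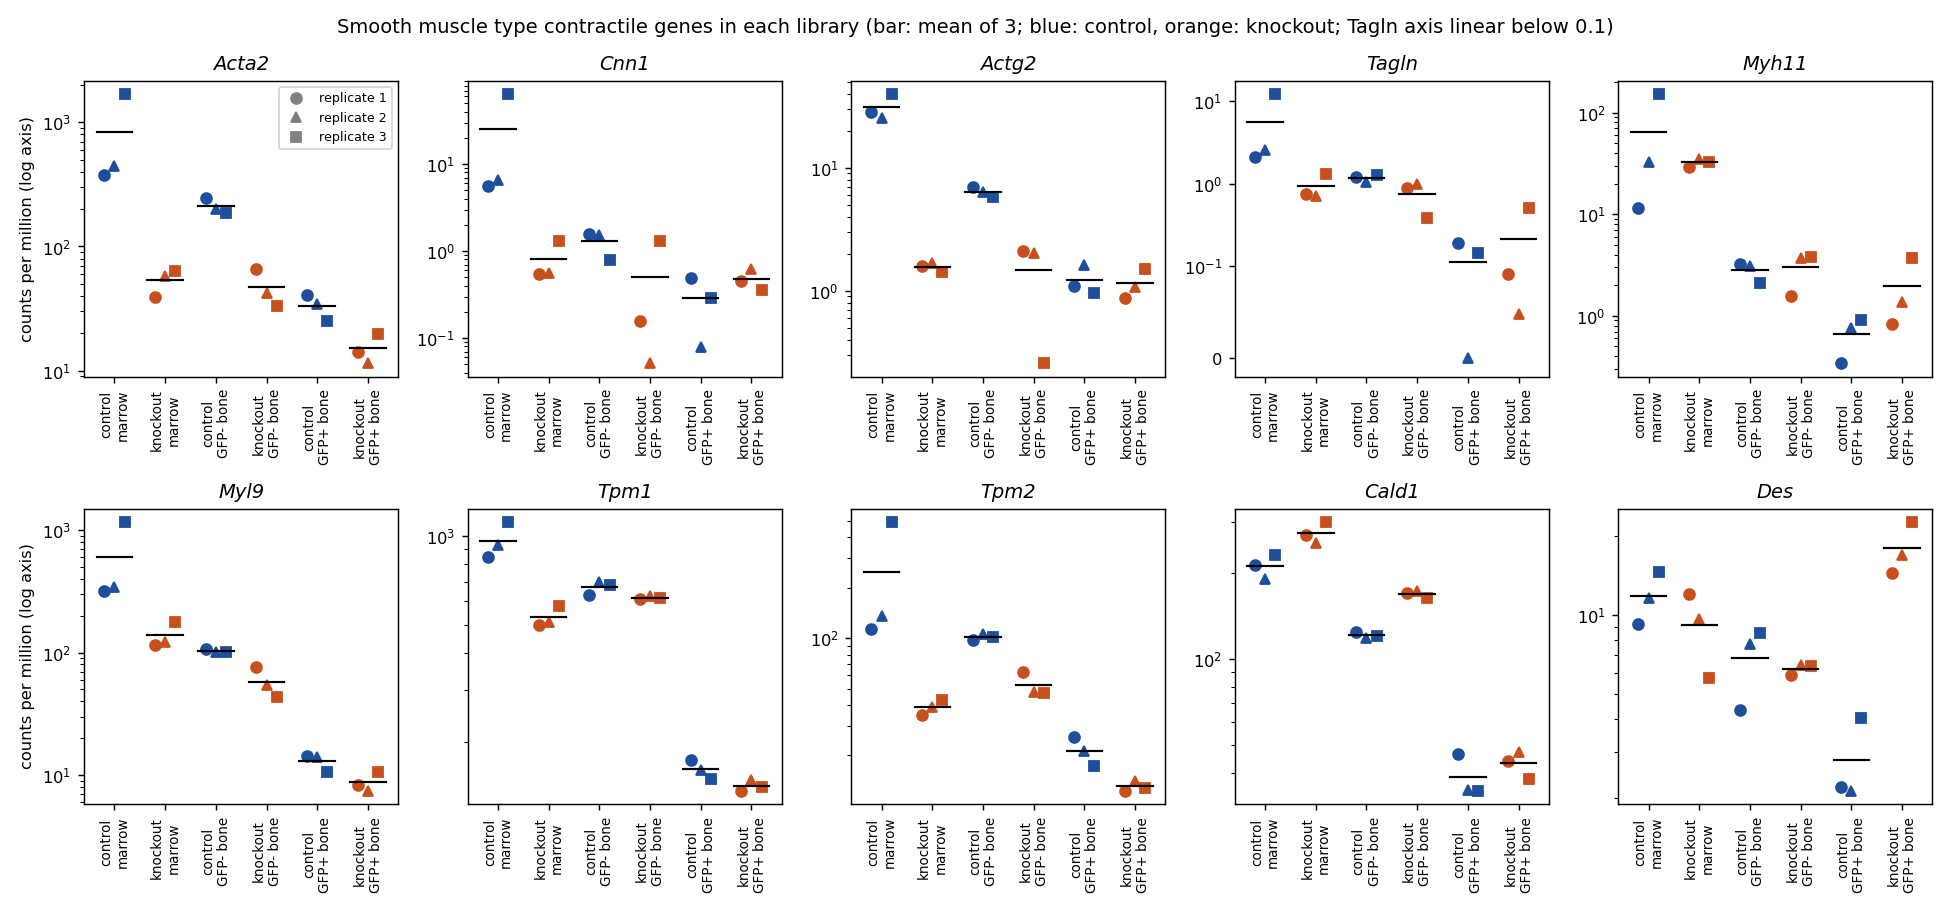
CPM of each gene (log axis, linear below 0.1 for Tagln) in the 18 libraries, by group; circles, triangles and squares are replicates 1, 2 and 3, bars are means, controls are blue and knockouts orange. Control marrow replicate 3 stands above its group for Acta2 (1676 CPM), Cnn1 (63.1), Myh11 (151), Myl9 (1166) and Tpm2 (493), and Des is highest in knockout GFP+ bone (14.4 to 22.6).

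In marrow, 7 of the 10 genes were lower in the knockout with no overlap between the genotypes, and Cald1 was higher without overlap. Over all genes tested, 54.7% did not overlap, 28.6% lower and 26.1% higher, and nothing is read from the members' share because this difference chose them. Acta2, alpha smooth muscle actin, was at 375, 448 and 1676 CPM in the 3 control marrow libraries and 39.1, 58.2 and 63.3 in the knockout ones. Its means were 833 ± 731 (SD, n = 3) and 53.5 ± 12.7 (n = 3), and the fitted log2 fold change was -3.96 ± 0.53 (SE). Actg2, the gamma actin of gut and other visceral smooth muscle, was at 28.5, 25.4 and 39.3 CPM in controls and 1.58, 1.68 and 1.41 in knockouts, a log2 fold change of -4.30 ± 0.28. The Actg2 difference changed little without control marrow replicate 3 (-4.10), while that of Acta2 went to -2.95.

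Among the actin-binding regulators, Cnn1, the smooth muscle calponin, was at 5.62, 6.63 and 63.1 CPM in control marrow and 0.548, 0.56 and 1.32 in knockout marrow. The log2 fold change was -5.00 ± 0.98, and -2.99 without control marrow replicate 3. Tagln was at 2.1, 2.52 and 12 CPM against 0.741, 0.71 and 1.32, which gave -2.58 ± 0.56, and -1.36 without that library. Cald1, which encodes caldesmon in smooth muscle and non-muscle forms, went the other way, with 213, 190 and 231 CPM in controls and 271, 253 and 300 in knockouts (log2 fold change 0.38 ± 0.11).

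The myosin genes divided. Myl9, the regulatory light chain of smooth muscle myosin, was at 318, 345 and 1166 CPM in control marrow and 116, 122 and 179 in knockout marrow, with no overlap and a log2 fold change of -2.13 ± 0.41 (-1.26 without control marrow replicate 3). Myh11, the smooth muscle myosin heavy chain and a marker of mature smooth muscle, overlapped between genotypes. Its control libraries held 11.5, 32.9 and 151 CPM and its knockout libraries 29.4, 35 and 32.7. The fitted value of -1.0 ± 0.63 turned to 0.55 without control marrow replicate 3, so its direction rests on that library.

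Of the filament genes, Tpm2 (beta tropomyosin) was at 114, 136 and 493 CPM in control marrow and 34.7, 38.9 and 43.1 in knockout marrow, a log2 fold change of -2.67 ± 0.43, and -1.68 without replicate 3. Tpm1 (alpha tropomyosin, also made by non-muscle cells) was at 845, 932 and 1112 CPM against 499, 510 and 579, a smaller difference of -0.86 ± 0.10. Des, the intermediate filament protein desmin, overlapped, at 9.21, 11.6 and 14.6 CPM against 12, 9.64 and 5.73. The members' median log2 fold change in marrow was -2.36 beside -0.04 over all genes. A log2 fold change of -2 or lower, seen for 6 members, was seen for 3.72% of all genes. Nothing is read from either comparison with all genes, because this difference chose the members. In knockout marrow replicate 2, the library with megakaryocyte RNA, no member was the highest of its group except Actg2 (1.68 CPM) and Myh11 (35 CPM). Cell type markers differed between the marrow genotypes as well, where 24.8% of all genes were lower and 23.1% higher by the test. By edgeR's test, 6 of 12 pericyte and vascular smooth muscle markers were lower in the knockout and 1 higher (median -1.14), although their sums overlapped at 1934 to 2349 CPM in controls and 1956 to 2497 in knockouts, and Higd1b and Vtn were under 1 CPM in all 3 knockout libraries. Osteoblast markers were lower in 7 of 8 genes, with sums of 149843 to 202117 CPM in controls and 70385 to 93472 in knockouts, and marrow stroma markers were higher in 7 of 8, with sums of 27716 to 41137 and 55506 to 68255 CPM. The part of these cells in the members' values was not tested. In these bulk samples, fewer cells of a type and less RNA per cell cannot be told apart.

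Control marrow replicate 3 set much of the spread. Against the mean of its 2 group mates it held 10.3 times the Cnn1 level, 6.78 times Myh11, 5.2 times Tagln, 4.07 times Acta2, 3.95 times Tpm2 and 3.52 times Myl9. Actg2 (1.46), Des (1.4), Tpm1 (1.25) and Cald1 (1.15) stood closer to 1. A ratio of at least 3 was thus found for 6 of 10 members, for 8 of 16 other smooth muscle contractile genes and for 1.17% of 12178 genes at this level. Nothing is read from the members' share, because the marrow difference that led to their choice includes control marrow replicate 3. Chosen after their values were seen, Kcnmb1, a potassium channel subunit of smooth muscle, had a ratio of 10.6, and Lmod1, leiomodin, had 9.28. Of the 12 pericyte and vascular smooth muscle markers none reached 3, but 25% reached 2, as did 2.78% of all genes and 60% of the members, and none of the other lists had a gene at 3 or more. Summed over 18 genes, the other smooth muscle contractile list was at 553, 561 and 1265 CPM in the 3 control marrow libraries. The pericyte list summed to 1934, 2007 and 2349 CPM, the endothelial list to 7.64, 6.2 and 4 and the skeletal muscle list to 2.2, 3.05 and 3.61. Among members with a group mean of at least 1 CPM, at most 1 reached 3 times its group mates in any of the other 17 libraries. Below that mean, on few counts, Cnn1 did so in knockout GFP- bone replicate 3 (1.29 CPM against 0.155 and 0.0515). Tagln did so in knockout GFP+ bone replicate 3 (0.504 CPM against 0.0914 and 0.0485).

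**Figure D2:**
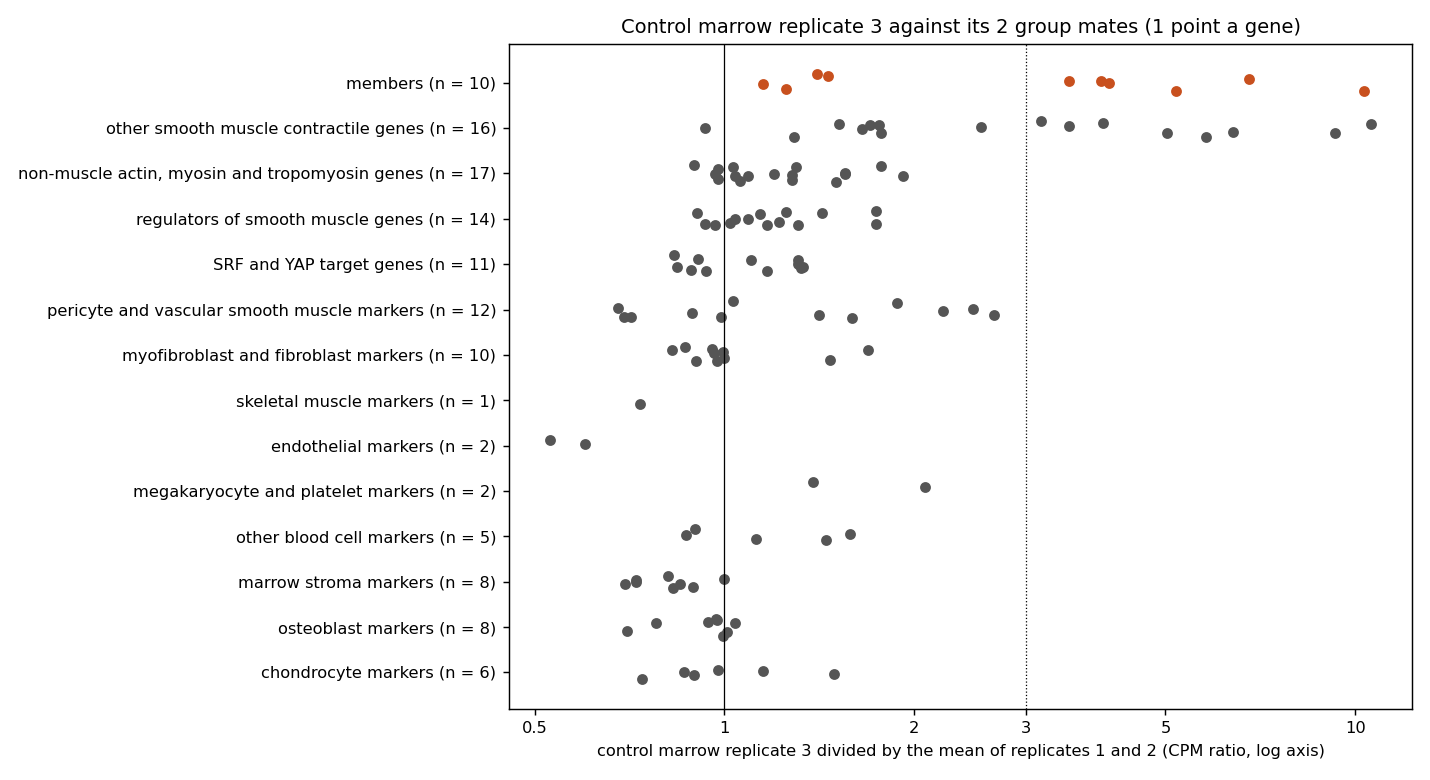
CPM in control marrow replicate 3 divided by the mean of replicates 1 and 2 (log axis), 1 point per gene, for the members and for each list; lines mark ratios of 1 and 3. Points at or beyond 3 occur among the members (6 of 10) and the other smooth muscle contractile genes (8 of 16), and in no other list. The members were chosen after a marrow difference that includes this library.

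Knockout effects in all 3 subsets also followed transcript length. Across 15511 genes, log2 fold change and longest-transcript length had Spearman correlations of 0.406 (marrow), 0.437 (GFP+ bone) and 0.444 (GFP- bone). Genes are not independent replicates, so this is a description. Split into 10 bins of transcript length, the short members lay in bins with negative medians over all genes, such as -0.34 for Acta2 and -0.53 for Myl9 in marrow, and the long Myh11 and Cald1 in bins with positive medians of 0.55 and 0.28. With the trend removed, the marrow values were -3.64 for Acta2, -3.87 for Actg2, -4.76 for Cnn1, -1.68 for Myl9 and 0.07 for Cald1, and the members' median was -1.94.

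The scaling of the libraries also set part of the split between higher and lower genes. Scaled by library totals alone, in place of factors for library composition, the median log2 fold change of all genes went from 0.03 to -0.34 in GFP+ bone, from -0.07 to -0.30 in GFP- bone and from -0.04 to 0.08 in marrow. The share of calls that were higher went from 50.7 to 30.9% in GFP+ bone, from 45.6 to 30.8% in GFP- bone and from 48.2 to 59.6% in marrow. For GFP+ against GFP- bone in controls, described further on, the median went from -0.04 to 0.15 and that share from 45.5 to 62.2%. For the difference between the knockout effects in GFP+ and GFP- bone, that share went from 81.8 to 62.2%.

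In GFP- bone, both smooth muscle actins fell and Cald1 rose in the knockout, 3 of 10 members, where 47.1% of all genes passed the test (25.7% lower and 21.5% higher). Acta2 was at 246, 202 and 185 CPM in controls and 65.4, 42.4 and 33.2 in knockouts. It fell by 2.16 on the log2 scale (SE 0.50, adjusted p = 0.00295 by edgeR's quasi-likelihood test), from 211 ± 31.4 to 47 ± 16.6 CPM (SD, n = 3 each). Actg2 was at 6.97, 6.3 and 5.75 CPM in controls and 2.12, 2.01 and 0.258 in knockouts, and fell by 2.04 on the log2 scale (SE 0.35, adjusted p = 0.0001 by the same edgeR test). The lowest Actg2 value rests on 4 counts, and without that library the change was -1.61. Both actins kept their call in all 14 alternatives, including the removal of the length trend (-1.78, adjusted p = 0.0122, and -1.52, adjusted p = 0.00289, by edgeR).

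Cald1 rose from 124, 118 and 120 CPM to 170, 172 and 163, a log2 fold change of 0.48 ± 0.11 (adjusted p = 0.00158 by edgeR's quasi-likelihood test). The libraries did not overlap. Its call was lost when the length trend was removed (0.14, adjusted p = 0.331) and with scaling by library totals (0.24, adjusted p = 0.133).

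Myl9 and Tpm2 were lower without overlap but did not pass the test. Myl9 was at 107, 101 and 101 CPM in control GFP- bone and 75.7, 54.5 and 43.5 in knockout GFP- bone (log2 fold change -0.83 ± 0.41, adjusted p = 0.12 by edgeR). Tpm2 was at 98.2, 106 and 102 CPM against 62.7, 48 and 47.1 (-0.96 ± 0.42, adjusted p = 0.0774 by edgeR). Control marrow replicate 3, no part of this contrast, widens the spread that the fit shares over all groups. Without it, edgeR gave adjusted p of 0.00113 for Myl9 and 1.36e-05 for Tpm2, and 5 members were called. With the length trend removed, both stayed uncalled (-0.29 and -0.61).

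The other members gave no call in GFP- bone. Tpm1 was at 631, 697 and 682 CPM in controls and 612, 625 and 614 in knockouts, a log2 difference of -0.12 ± 0.10. With scaling by library totals, edgeR called Tpm1 (-0.36, adjusted p = 0.011) and Tpm2 (-1.20, adjusted p = 0.0311), and with the length trend removed Tpm1 turned to 0.08. Tagln was at 1.19, 1.05 and 1.26 CPM against 0.879, 0.979 and 0.388, from 6 to 21 counts per library. Cnn1 was at 1.57, 1.52 and 0.779 CPM against 0.155, 0.0515 and 1.29, the knockout values resting on 3, 1 and 20 counts, and its groups overlapped. Myh11 (3.2, 3.1 and 2.1 CPM against 1.55, 3.71 and 3.75) and Des (4.33, 7.77 and 8.51 against 5.89, 6.44 and 6.4) overlapped too, and the sign of Myh11 differed between scalings. In all, 7 of 10 members did not overlap between genotypes, 6 of them lower, against 54.4% of all genes in either direction and 29.7% lower. The members' median log2 fold change was -0.71 (-0.45 with the length trend removed), beside -0.07 over all genes.

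Markers of cells that carry these proteins moved in both directions in GFP- bone. Of 12 pericyte and vascular smooth muscle markers, 6 fell and 3 rose. Of all genes, 25.7% fell and 21.5% rose, so the share of rises was near that of all genes. Their sum was 399 to 507 CPM in controls and 353 to 455 in knockouts, per library total. The factors for library composition, left out of these sums, were 0.93 to 0.96 in controls and 0.74 to 0.88 in knockouts. No direction is therefore read from the sums. Among the 12 markers Kcnj8, a potassium channel of pericytes, fell by 1.42 on the log2 scale (adjusted p = 4.49e-06 by edgeR) from 49.5, 34.4 and 38.6 CPM to 13.6, 13.1 and 19.4. Notch3, a receptor of mural cells, rose from 9.73, 8.08 and 8.21 CPM to 52.4, 56.7 and 76 (log2 fold change 2.83, adjusted p = 2.19e-06 by edgeR). Higd1b was under 1 CPM in the 3 knockout libraries. All 8 marrow stroma markers rose in GFP- bone, from sums of 1275 to 1747 CPM to sums of 3539 to 3983. The part of these cells in the actin result was not tested. In control GFP- bone replicate 2, the library with blood cell markers, Acta2 (202 CPM) and Actg2 (6.3 CPM) lay between the other 2 libraries.

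In GFP+ bone, desmin rose and no other member passed the test, where 51.3% of all genes did (26.0% higher and 25.3% lower). Des was at 2.2, 2.13 and 4.04 CPM in controls and 14.4, 17 and 22.6 in knockouts, or 2.79 ± 1.08 against 18 ± 4.17 (SD, n = 3 each). The log2 fold change was 2.70 ± 0.31 (adjusted p = 7.27e-07 by edgeR's quasi-likelihood test). All 3 knockout libraries lay above all 3 controls, and the call held in all 14 alternatives, with adjusted p from 7.29e-16 to 2.00e-05 by edgeR or DESeq2. Desmin is also a skeletal muscle protein. Of the skeletal muscle markers, 1 rose and 2 fell by the test. The one that rose was Acta1, skeletal alpha actin, from 3.08, 5.29 and 6.11 CPM to 20.7, 12.9 and 10 (log2 fold change 1.63, adjusted p = 0.00693 by edgeR). The 13 markers summed to 86.1 to 92.6 CPM in control GFP+ bone and to 50.2 to 70.1 CPM in knockout GFP+ bone, per library total. The factors for library composition, left out of these sums, were 1.08 to 1.09 in controls and 0.81 to 0.84 in knockouts. No direction is therefore read from the 2 ranges. Of the 13 markers, 9 were under 1 CPM in all 3 libraries of each group, namely Ckm, Myh1, Myh2, Myh4, Tnnc2, Mb, Ttn, Myod1 and Pax7. The pericyte list summed to 284 to 299 CPM in controls and 649 to 870 in knockouts, with 4 of its 12 genes higher and 2 lower by the test, and Higd1b and Vtn under 1 CPM in both genotypes. Marrow stroma markers summed to 382 to 422 CPM in controls and 647 to 816 in knockouts, and 7 of 8 rose. Chondrocyte markers, 5 of 6 of which rose, are given above. The part of these cells in the Des result was not tested.

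The smooth muscle actins were low in GFP+ bone. Acta2 was at 40.3, 34.5 and 25 CPM in controls and 14.1, 11.5 and 19.6 in knockouts, with no overlap and a log2 fold change of -1.17 ± 0.54 that did not pass (adjusted p = 0.0892 by edgeR). Actg2 was at 1.1, 1.62 and 0.963 CPM against 0.868, 1.07 and 1.51, overlapping. Without control marrow replicate 3, edgeR called 4 members, Acta2 (adjusted p = 0.00239), Tpm2 (0.000736), Myl9 (0.0387) and Des. With scaling by library totals, edgeR called Acta2 (-1.55, adjusted p = 0.0288) and Tpm1 (-0.57, adjusted p = 0.000241) beside Des. With the length trend removed, Acta2 was at -0.79 (adjusted p = 0.264 by edgeR).

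Tpm2 was at 25.7, 21.2 and 17.4 CPM in control GFP+ bone and 12.3, 14.1 and 12.8 in knockout GFP+ bone, a log2 difference of -0.72 ± 0.47. Myl9 (14.3, 13.9 and 10.6 CPM against 8.27, 7.42 and 10.6) did not overlap, although its lowest control and highest knockout library both read 10.6 to the digits shown. Tpm1 was at 174, 161 and 150 CPM against 137, 149 and 141, and Cald1 at 46.5, 34.8 and 34.6 against 43.9, 47.4 and 37.9. The Cald1 difference of 0.16 turned to -0.22 with scaling by library totals and to -0.24 with the length trend removed. In all, 5 of 10 members did not overlap between genotypes in GFP+ bone, namely Acta2, Myl9, Tpm1 and Tpm2 (lower) and Des (higher), against 57.6% of all genes in either direction, 28.8% lower and 28.8% higher. The 3 low members could hardly be measured in these cells. Cnn1 had 13, 2 and 6 counts in controls and 10, 13 and 5 in knockouts, Tagln 5, 0 and 3 against 2, 1 and 7, and Myh11 9, 19 and 19 against 18, 28 and 52. The 0 of Tagln allows up to 0.118 CPM in that library, from counting error alone.

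**Figure D3:**
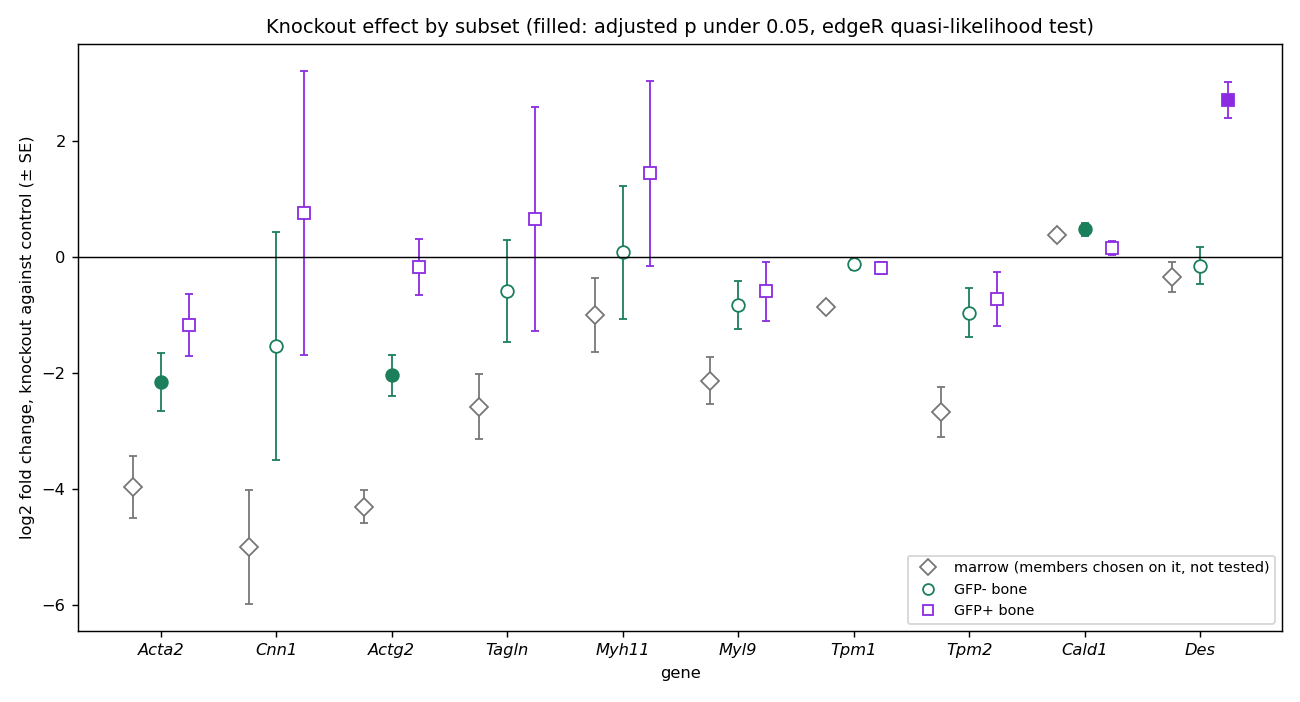
Log2 fold change of knockout against control (± SE) for each gene in marrow (grey diamonds, not tested because the genes were chosen there), GFP- bone (green circles) and GFP+ bone (purple squares), 3 libraries a group; filled symbols passed the test. Acta2, Actg2 and Cald1 are filled in GFP- bone and Des in GFP+ bone.

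The knockout effect differed between the 2 bone subsets for 1 member. For Des the effect in GFP+ bone exceeded that in GFP- bone by 2.85 ± 0.45 on the log2 scale (adjusted p = 0.00053 by edgeR's quasi-likelihood test of the interaction), where 6.08% of all genes passed, 4.98% in this direction and 1.11% in the other. It was called in all 20 alternatives. The actins were closer to no change in GFP+ than in GFP- bone, and edgeR's main fit, which pairs no libraries, called neither difference. Actg2 differed by 1.87 ± 0.62 (adjusted p = 0.0836 by edgeR, 0.014 by DESeq2) and Acta2 by 1.0 ± 0.73 (adjusted p = 0.508 by edgeR). With replicate numbers as a block, edgeR called the Acta2 difference (1.03, adjusted p = 0.0436). The numbers were taken to pair the libraries in knockouts and not in controls. For Cald1 (-0.32 ± 0.16), Tpm1 (-0.07 ± 0.14), Tpm2 (0.24 ± 0.63) and Myl9 (0.24 ± 0.66) no difference was called.

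GFP+ and GFP- bone cells differed in most of the 10 members in control mice. Every member was lower in GFP+ bone, with no overlap between the libraries, and 8 of 10 passed the test, where 40.0% of all genes did and 21.8% were lower. Of all genes, 50.1% did not overlap, 26.0% lower and 24.1% higher. Myl9 fell by 2.99 on the log2 scale (SE 0.46, adjusted p = 0.000141 by edgeR), from 103 ± 3.6 CPM in GFP- bone to 12.9 ± 2.03 in GFP+ bone (SD, n = 3 each). Tpm1 fell by 2.05 (SE 0.10, adjusted p = 2.37e-11 by edgeR), from 670 ± 34.7 to 162 ± 11.7 CPM. Acta2 fell by 2.66, Actg2 by 2.35, Tpm2 by 2.25, Cald1 by 1.64 and Des by 1.34, with adjusted p between 1.85e-09 (Cald1) and 0.00419 (Des) by edgeR.

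The 3 members of low level were less secure in that comparison. Tagln fell by 3.33 (SE 1.25, adjusted p = 0.0384 by edgeR), and the call was lost when any of the 6 libraries was left out (0.0647 to 0.127) and with scaling by library totals (0.0505). Cnn1 (-2.14 ± 1.99, adjusted p = 0.43) and Myh11 (-2.10 ± 1.46, adjusted p = 0.281 by edgeR) did not pass. Without control marrow replicate 3, which is no part of this contrast, edgeR gave 0.018 for Cnn1 and 0.0249 for Myh11. The members' median log2 difference was -2.19, beside -0.04 over all genes. Markers of several cell types moved with them in this comparison, where 21.8% of all genes were lower and 18.2% higher by the test. By edgeR's test, 10 of 12 pericyte and vascular smooth muscle markers were lower in GFP+ bone and 2 higher (median -3.35), 9 of 12 myofibroblast and fibroblast markers were lower and 1 higher (median -1.80), 7 of 8 marrow stroma markers were lower and 1 higher (median -2.90) and 7 of 8 osteoblast markers were lower (median -0.93). All 6 chondrocyte markers were higher (median 1.61). Pericyte markers summed to 399 to 507 CPM in GFP- bone and 284 to 299 in GFP+ bone, with Notch3, Abcc9, Higd1b and Vtn under 1 CPM in all 3 GFP+ libraries. The part of these cells in the members' differences was not tested.

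In knockout mice, 5 members were lower and Des was higher in GFP+ than in GFP- bone, where 50.4% of all genes passed the test, 24.9% lower and 25.5% higher. Myl9 fell by 2.75, Tpm1 by 2.12, Tpm2 by 2.01 and Cald1 by 1.96 on the log2 scale, with adjusted p from 4.09e-12 (Tpm1) to 0.00259 (Tpm2) by edgeR. Acta2 fell by 1.66 (SE 0.54, adjusted p = 0.0205 by edgeR), and this call was lost without knockout GFP+ replicate 1 (0.0638), knockout GFP+ replicate 2 (0.0729) or knockout GFP- replicate 1 (0.0823). Des was 1.51 ± 0.29 higher on the log2 scale (adjusted p = 0.000202 by edgeR), at 14.4 to 22.6 CPM in GFP+ bone and 5.89 to 6.44 in GFP- bone. Actg2 (-0.47 ± 0.48, adjusted p = 0.439 by edgeR) was not called, and the libraries of Cnn1, Tagln and Myh11 overlapped. Without control marrow replicate 3, edgeR also called Tagln (-2.08, adjusted p = 0.0229). These comparisons share libraries with the knockout effects, so they are given side by side and not counted against each other.

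**Figure D4:**
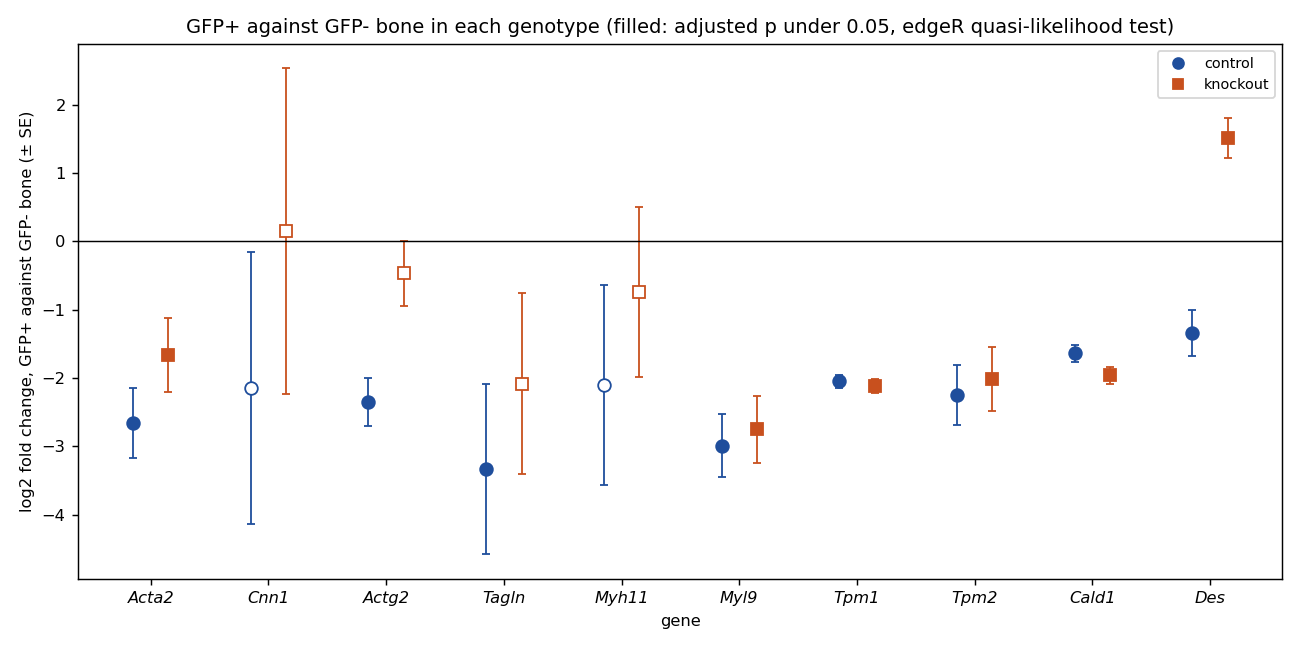
Log2 fold change of GFP+ against GFP- bone (± SE) for each gene in control (blue circles) and knockout mice (orange squares), 3 libraries a group; filled symbols passed the test. All 10 control values are below 0, from -1.34 (Des) to -3.33 (Tagln), and Des (1.51) is the only filled knockout value above 0.

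In knockout against control GFP+ bone, other genes of the apparatus were called more often as higher than as lower. Of 16 measured genes of a list of 18 other smooth muscle contractile genes, 8 rose and 0 fell by edgeR's quasi-likelihood test in knockout GFP+ bone, where 26.0% of all genes rose, with a median log2 fold change of 0.86 beside 0.03 over all genes (0.47 with the length trend removed, and 4 rises). Libraries scaled by their totals gave 5 rises and 0 falls. Smtn, which encodes smoothelin, rose from 94.1, 99.1 and 101 CPM to 186, 165 and 208 (log2 fold change 0.92, adjusted p = 3.44e-05 by edgeR). Mylk, the myosin light chain kinase, rose by 1.19 there (adjusted p = 0.00124 by edgeR) and by 0.75 in GFP- bone (adjusted p = 0.00497 by edgeR), where 4 of the 16 rose and 1 fell beside 21.5% and 25.7% of all genes, a share of rises near that of all genes (2 and 1 with scaling by library totals, 1 and 1 with the length trend removed). The Mylk call in GFP- bone was lost with either alternative (adjusted p = 0.0516 and 0.767 by edgeR), and that in GFP+ bone with the length trend removed (0.662). The gene that fell in GFP- bone was Casq2, a calcium-binding protein of the muscle sarcoplasmic reticulum, from 2.89, 2.2 and 2.34 CPM to 0, 0.515 and 0.258 (adjusted p = 0.000482 by edgeR). In marrow, the contrast that chose the members, 9 of these 16 genes were lower and 2 higher by the test, as were 24.8% and 23.1% of all genes. In control mice, 6 of the 16 were called lower in GFP+ than in GFP- bone and 0 higher, beside 21.8% and 18.2% of all genes. Their median log2 difference was -1.24, and 5 of the 16 lay above 0.

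The non-muscle forms of the same proteins changed in both directions. Of 17 such genes, 9 rose and 4 fell in GFP+ bone, where 26.0% of all genes rose and 25.3% fell. In GFP- bone 6 rose and 7 fell, beside 21.5% and 25.7% of all genes. The median log2 fold changes of the 17 genes, 0.33 and 0.07, turned to -0.05 and -0.18 with scaling by library totals, where 6 rose and 6 fell and 4 rose and 8 fell. With the length trend removed, 10 rose and 1 fell in GFP+ bone, and 7 rose and 1 fell in GFP- bone. Myh9, a non-muscle myosin heavy chain, rose in GFP- bone from 17.1, 10.2 and 15.6 CPM to 101, 79.8 and 87.5 (log2 fold change 2.65, adjusted p = 1.35e-07 by edgeR). Myl6, a myosin essential light chain, fell there from 366, 349 and 341 CPM to 220, 192 and 190 (-0.81, adjusted p = 8.65e-05 by edgeR). In control mice 10 of the 17 were lower in GFP+ than in GFP- bone and 0 higher, beside 21.8% and 18.2% of all genes. Cnn2, a calponin of non-muscle cells, led them, at 399, 372 and 402 CPM in GFP- bone and 72.6, 64.3 and 47.6 in GFP+ bone.

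Among regulators of these genes, Srf and Smad3, a transducer of TGF-beta, rose in both bone subsets. The Srf rise in GFP- bone (0.73, adjusted p = 0.00379 by edgeR) lost its call with scaling by library totals (0.49, adjusted p = 0.0554). Srf went from 13.2, 22.3 and 22.1 CPM to 66.4, 63.9 and 50.9 in GFP+ bone (log2 fold change 1.66, adjusted p = 3.21e-07 by edgeR). Its rise there was larger than in GFP- bone by 0.94 ± 0.26 (adjusted p = 0.0361 by edgeR's test of the interaction), a call lost with scaling by library totals (0.79, adjusted p = 0.111). Smad3 rose by 1.97 in GFP+ bone and 1.88 in GFP- bone on the log2 scale, with adjusted p of 3.93e-09 and 1.08e-08 by edgeR. Of 11 measured targets of SRF and YAP, 7 rose and 0 fell in GFP+ bone, where 26.0% of all genes rose and 25.3% fell. In GFP- bone 7 rose and 1 fell (3 and 1 with scaling by library totals), beside 21.5% and 25.7% of all genes. In marrow 8 of these targets were higher and 1 lower by the test (median log2 fold change 1.04), beside 23.1% and 24.8% of all genes. Among the targets Thbs1, thrombospondin 1, rose from 288, 358 and 412 CPM to 1167, 1223 and 1091 in GFP- bone (log2 fold change 1.72, adjusted p = 1.41e-07 by edgeR).

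Across the 18 libraries, the profiles of the members (log2 of CPM + 1) were compared with that of Acta2. Pearson r was 0.96 for Tpm2, 0.93 for Actg2, 0.90 for Tagln, 0.89 for Myl9, 0.83 for Cnn1 and 0.81 for Tpm1. It was lower for Myh11 (0.61) and Cald1 (0.57) and near 0 for Des (0.05). Among 12589 genes, the non-member genes with the most similar profiles were Rasl12 (0.95), Tspan15 (0.94), Esam (0.93), Casq2 (0.93) and Myl12a (0.92), followed by Calhm5, Galnt16, Ctsb, Stard3nl and Nat14 (0.92 to 0.90). The points share the 6 groups and the high control marrow replicate 3, without which r was 0.41 for Myh11 and -0.12 for Des. They also include the marrow difference that led to the choice of the members, so nothing is read from the members' likeness. Rasl12, the closest, was at 22.9, 29.1 and 54.8 CPM in control marrow and 4.48, 5.15 and 5.68 in knockout marrow, and fell by 1.49 on the log2 scale in GFP- bone (adjusted p = 0.00321 by edgeR).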

How the data were processed

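Total RNA of 18 sorted-cell libraries, 6 groups of 3, was sequenced after SMART-Seq v4 amplification, per the labels' protocols. The authors deposited raw counts per gene, 1 table per library, and the submitters' processing notes name STAR, featureCounts, DESeq2 and mm10, without versions. The strand setting, the treatment of multi-mapping reads and the annotation release are not given in the sources used here. Of 54446 gene IDs, 54409 were matched to a symbol, and 53499 have the same coordinates in GENCODE M21.

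Counts were fitted with edgeR 4.0.16 in R 4.3.3 over all 18 libraries. Genes were kept by filterByExpr (minimum count 10, minimum total 15), libraries were scaled by TMM, and the robust quasi-likelihood F-test was two-sided, with Benjamini-Hochberg adjustment over 15516 genes and a threshold of 0.05. CPM of single genes are counts per 1000000 of the TMM-scaled library size, and sums over gene lists are per 1000000 of the unscaled library total. SE is the log2 fold change divided by the root of F, an approximation. The spread is shared by all groups over 12 residual degrees of freedom. On simulated counts for the knockout effect in GFP- bone (14740 genes, 200 changed), 93 of 100 changes of 1 on the log2 scale and 100 of 100 of 2 were recovered, and 11 unchanged genes were called. Recovery at the spread of the members themselves was not tested. In GFP- bone their SE ran from 0.10 (Tpm1) to 1.96 (Cnn1), and Tpm2 at -0.96 was not called. Replicates differed by more than sampling noise, so none was counted as a repeat of another.

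The members and all gene lists were chosen with earlier results of these data known, so lists are described by counts and medians without a list test. The summary of one list of regulators is not reported here. Named in each list were up to 4 genes with the smallest unadjusted p in the contrast described, with any other named as chosen after its values were seen. Genes most like Acta2 were ranked by Pearson r over the 18 libraries.

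Same-numbered bone libraries of one genotype deviated together. Over all kept genes the correlations of their deviations were 0.149, 0.162 and 0.206 in knockouts and 0.0586, 0.0324 and 0.119 in controls. Over 7969 genes with a mean of at least 10 CPM, a restriction added after the first values were seen, they were 0.263, 0.374 and 0.407 and 0.211, 0.165 and 0.315. With 0.1 in every pair as the limit over all kept genes, the numbers were taken to pair the libraries in knockouts and not in controls. This comes from the data, since the labels tie the numbers to nothing. Alternatives were DESeq2 1.42.0, its size factors, library totals, no filter, a fit of only the libraries compared, a replicate block, removal of a trend on transcript length, and each library left out. A fit without control marrow replicate 3 was added after the data were seen.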

Additional observations from a re-analysis of the deposited data

Results flagged for a closer look

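The knockout effect on Des differed between the bone subsets, by 2.85 on the log2 scale (edgeR's test of the interaction, adjusted p = 0.00053). All 3 knockout GFP+ libraries lay above all 3 control GFP+ libraries, while the GFP- libraries overlapped.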

How the results depend on the processing

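Leaving out each library in turn gave 7071 to 7530 genes called in GFP+ bone, 6391 to 6721 in GFP- bone, 6489 to 6858 in marrow, 5247 to 5602 for GFP+ against GFP- bone in controls, 6990 to 7270 in knockouts and 664 to 855 for the interaction. Members called were 1 to 2 in GFP+ bone, 3 in GFP- bone, 7 for the subsets in controls, 5 to 6 in knockouts and 1 for the interaction. The second member in GFP+ bone was Cald1, without control GFP+ replicate 1 (0.31, adjusted p = 0.0284 by edgeR). Directions turned for Myh11 in marrow (range -1.50 to 0.55), for Actg2 (-0.36 to 0.09) and Tagln (-0.60 to 1.37) in GFP+ bone, for Myh11 (-0.13 to 0.43) and Des (-0.38 to 0.03) in GFP- bone, for Cnn1 between knockout subsets (-0.42 to 2.22) and for the Tagln interaction (-0.02 to 1.96). Of 360 tested log2 values of the members, 339 kept both direction and side of the threshold, and under the other settings 351 of 392 did.

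With the length trend removed, Actg2 (0.31), Tpm1 (0.02) and Cald1 (-0.24) turned in GFP+ bone, and Myh11 (-0.65), Tpm1 (0.08) and Des (0.02) in GFP- bone. With library totals, Cald1 turned in GFP+ bone (-0.22) and Myh11 in GFP- bone (-0.16), and 3 members were called in GFP+ bone. A fit of only the libraries compared called 4 members in GFP+ and 5 in GFP- bone, as did the fit without control marrow replicate 3. For the interaction, DESeq2 called 1420 genes and 2 members, Des and Actg2. The cause of these changes was not tested.

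With the replicate block, edgeR called 4 members in GFP+ bone, Des, Acta2 (adjusted p = 0.00381), Tpm2 (0.00783) and Myh11 (1.48, adjusted p = 0.0186), and 5 in GFP- bone, with Myl9 (0.000435) and Tpm2 (0.000102) added. For the subsets in controls it added Cnn1 (0.0104) and Myh11 (0.00292), each library correlating best with its own number over the genes of at least 10 CPM. For the interaction, the replicate block gave 1440 genes and 2 members, Des and Acta2 (1.03, adjusted p = 0.0436). Between knockout subsets the block changed no call among the members. Between genotypes the same numbers were not paired, with correlations over genes of at least 10 CPM of -0.123 to 0.0575 in GFP+ bone and 0.00242 to 0.12 in GFP- bone. Cnn1 and Tagln in GFP+ bone rested on 0 to 13 counts per library.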
